A study of Mus musculus with 6 samples.

Results

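Interferon-stimulated genes are the genes that cells switch on when an interferon reaches them, and their products hold back viruses. The group described here holds 48 mouse genes of this kind, chosen as a list: sensors of foreign nucleic acid, the transcription factors of the response, the enzymes that attach ISG15 to proteins (ISGylation), and effectors that act on viral RNA or at membranes. A gene was measured where the array annotation gives at least 1 probe set (the oligonucleotides that report 1 transcript) to that gene alone, and the probe set with the highest mean over the 6 arrays was read. That left 46 of the 48 genes, out of 18193 genes with a probe set of their own. Isg15 and Ifi44 had none, so their expression was not analyzed here.

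The lungs came from male mice on a C57BL/6 background that carry both CC10-rtTA and tet-O-EGFR-L858R, so that doxycycline (Dox) turns on mutant human EGFR in lung epithelium, where the CC10 promoter drives the activator, and tumors form. Both groups carried both transgenes and both received Dox. LC-HFD mice (lung cancer, high-fat diet, 60% of energy from fat) and LC-RD mice (lung cancer, regular diet) are described as 6 weeks old at the start, with their diet for 2 weeks and then the same diet with Dox for 8 weeks. The methods give an age of 6 to 8 weeks, and the labels differ on timing and give a diet phase until 8 weeks followed by 7 weeks of Dox, with 625 ppm Dox in the chow and 2 mg/ml in the water. RNA of the whole lung of 1 mouse went on each array, with 3 arrays per group and no mouse without tumor induction analyzed here.

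Type I interferons bind a receptor shared by almost all cells, the kinases JAK1 and TYK2 then activate STAT proteins, and a complex that contains STAT2 and IRF9 binds interferon-stimulated response elements (ISREs) beside its target genes. Interferon-gamma acts through its own receptor. In the lung, epithelium and alveolar macrophages both respond, and IRF7, itself a target, feeds the response forward by inducing more interferon. Whole-lung RNA holds all these cells at once, so more cells of a responding type and more RNA per cell cannot be told apart.

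The promoters of the 4 members with the largest increases and of the only member that fell are shown, since the ISRE is the element through which interferon acts on this group. Each runs from 150 bases before the start of transcription to 30 bases from it, 5′ to 3′ in the direction of the gene (RefSeq, GRCm38.p6). Capitals mark each match to the letters GAAANNGAAA, a core of the ISRE that was searched on both strands, and matches that overlap are counted apart. These genes were chosen after their values were seen.
Bst2, chr8:71537443-71537622, minus strand: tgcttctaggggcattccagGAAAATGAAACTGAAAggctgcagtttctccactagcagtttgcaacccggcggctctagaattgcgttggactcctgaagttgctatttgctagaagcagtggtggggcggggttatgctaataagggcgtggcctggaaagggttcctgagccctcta
Irf7, chr7:141266395-141266574, minus strand: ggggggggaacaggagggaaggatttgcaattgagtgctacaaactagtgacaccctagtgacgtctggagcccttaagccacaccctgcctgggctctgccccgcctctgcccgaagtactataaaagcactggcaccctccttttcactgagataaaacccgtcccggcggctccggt
Ifitm2, chr7:140955932-140956111, minus strand: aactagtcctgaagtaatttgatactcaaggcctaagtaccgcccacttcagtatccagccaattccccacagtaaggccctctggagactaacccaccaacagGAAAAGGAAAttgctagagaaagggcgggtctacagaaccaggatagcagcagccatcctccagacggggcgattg
Ifitm3, chr7:141010715-141010894, minus strand: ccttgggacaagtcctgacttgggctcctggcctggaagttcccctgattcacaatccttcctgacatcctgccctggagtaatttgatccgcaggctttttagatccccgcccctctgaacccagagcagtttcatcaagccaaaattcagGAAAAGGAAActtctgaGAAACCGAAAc
Ddx60, chr8:61927937-61928116, plus strand: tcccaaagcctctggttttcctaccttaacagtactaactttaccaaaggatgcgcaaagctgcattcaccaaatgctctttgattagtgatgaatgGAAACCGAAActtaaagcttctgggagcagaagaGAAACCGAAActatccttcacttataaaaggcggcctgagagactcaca

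Bst2 has 2 overlapping matches, the first starting at base -130 from the start of transcription. Ifitm2 has 1 match, at -46, and Ifitm3 has 2 that lie just past its start, at 3 and 20. Ddx60, the member that fell, has 2 matches, at -53 and -19, and the window of Irf7 has none of these letters. Over windows of 250 bases before to 50 bases after the start, 1131 of 32851 promoters of the table (3.44%) held a match. Windows were found for 37 of the 48 listed genes, and 15 of their 46 windows (32.6%) held one, among them those of Isg15, Ifit1, Ifit3, Rsad2, Apobec3, Eif2ak2, Ddx58 and Ifih1. Of genes with a window, 8 of the 16 that rose and 5 of the 18 that did not pass the test had a match. A match is a description of the letters, not a measured binding site.

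The difference between LC-HFD and LC-RD lungs was positive for 35 of the 46 measured members and negative for 11. By limma with Benjamini-Hochberg adjustment over 45037 probe sets, 21 of 46 members rose (45.7%), 1 fell (2.17%) and 24 did not pass an adjusted p of 0.05. Over all 18193 genes, 11.1% rose and 16.2% fell. Differences are LC-HFD minus LC-RD on the log2 scale, and the 21 increases ran from 0.32 to 0.87, which are folds of 1.25 to 1.83. No member passed with a change over 2-fold on the probe set read, against 1.68% of all genes. The median difference was 0.22 over the 46 members and 0.02 over all genes, or -0.07 over the 9084 genes whose log2 values averaged 6 or more.

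All 3 LC-HFD arrays lay above all 3 LC-RD arrays for 28 members and below them for 4, where the shares over all genes were 22.3% and 26.8%. The median difference of the members from their LC-RD means was 0.26, 0.18 and 0.21 on the LC-HFD arrays 1, 2 and 3, and 0.01, 0.03 and -0.03 on the LC-RD arrays. No single LC-HFD mouse carried the difference. Over the members, mice of a group varied with a median SD of 0.0738 (LC-HFD) and 0.0699 (LC-RD).

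**Figure D1:**
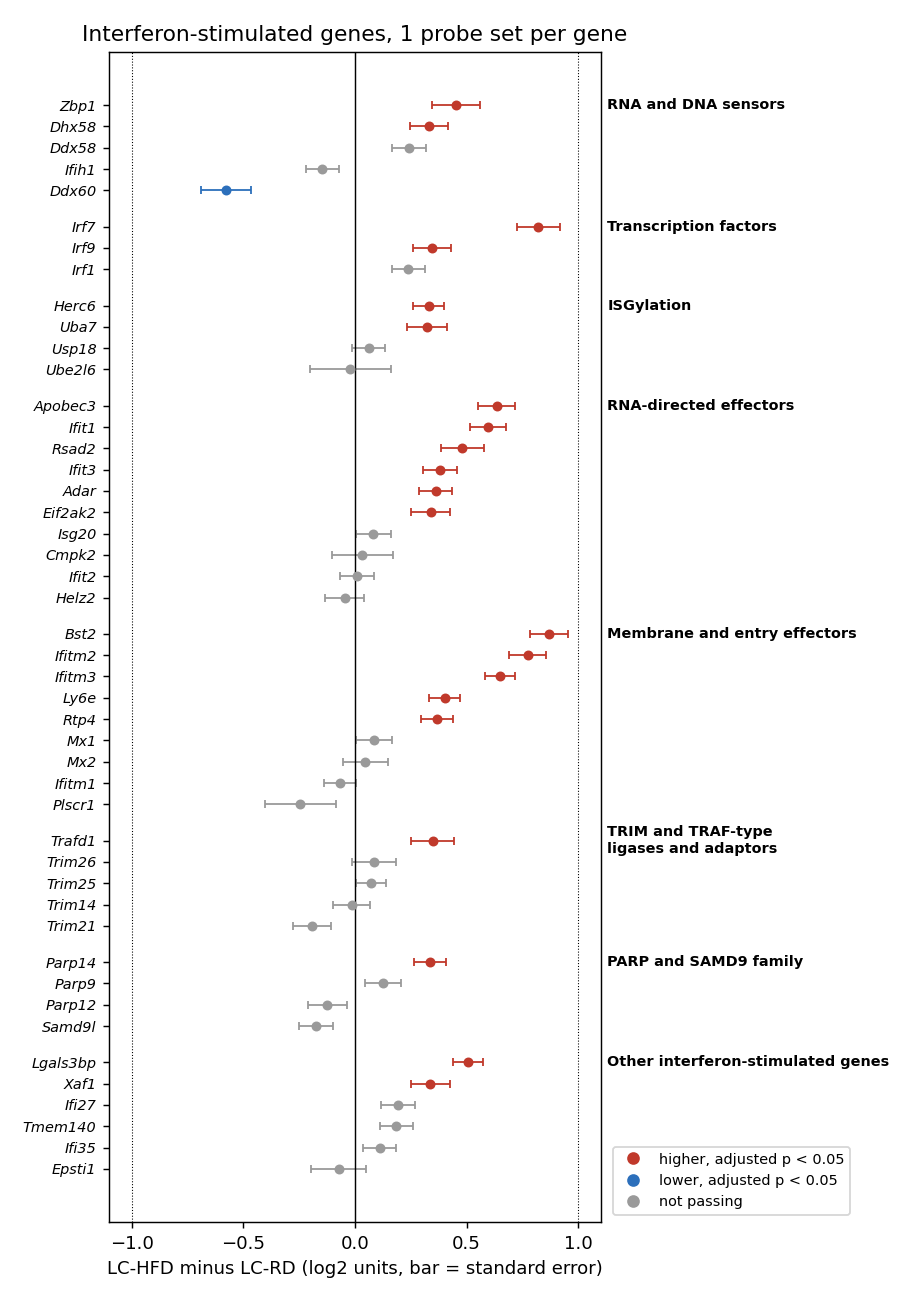
Difference between LC-HFD and LC-RD (log2 units, x axis) for the 46 measured members, grouped by role, with standard errors as bars and dotted lines at 2-fold. The 21 members in red rose, only Ddx60 in blue fell, and every point lies inside the 2-fold lines.

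The count of 21 fell to between 10 and 17 in the 6 fits that left 1 array out. The median difference over the members stayed at 0.202 to 0.236 in those fits, against 0.216 with all arrays. The count was 10 without LC-RD replicate 1 and 13 without LC-RD replicate 2. Of the 21 members, 9 (Irf7, Ifit1, Rsad2, Apobec3, Bst2, Ifitm2, Ifitm3, Ly6e and Lgals3bp) passed in all 6 of these fits. With a covariate for RNA integrity, the gap between 3' and 5' probe sets of control transcripts, 7 passed, which were the same genes without Rsad2 and Ly6e. The median difference over the members was 0.25 with the covariate and 0.22 without it, and single genes moved both ways. Irf9 had 0.45 with it against 0.34 and Ly6e 0.43 against 0.40, while Trafd1 had 0.235 against 0.348 and Dhx58 0.271 against 0.333. The gap ran from 1.584 to 1.696 on the LC-HFD arrays and from 1.703 to 1.761 on the LC-RD arrays, with no overlap. The covariate thus moved with diet, so the fit cannot separate them well, and the part of integrity in the result was not tested.

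Control probe sets moved with the groups as well. The hybridization controls, RNAs added at the array step, averaged 11.49 to 11.53 in LC-HFD and 10.01 to 10.04 in LC-RD, and the 18S rRNA probe sets averaged 7.57 to 7.69 and 12.51 to 12.54. The poly-A controls, added to the RNA before labelling, lay the other way from the hybridization controls, at 5.99 to 6.06 in LC-HFD and 6.33 to 6.42 in LC-RD. Diet and the handling of the arrays therefore cannot be told apart for any gene below. The beta-actin probe sets differed by 0.03 and the Gapdh probe sets by 0.24. Sftpc, of alveolar type II cells, averaged 13.81 in both groups and Scgb1a1, of club cells, 13.49 and 13.60, so transcripts that define lung tissue were present.

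**Figure D2:**
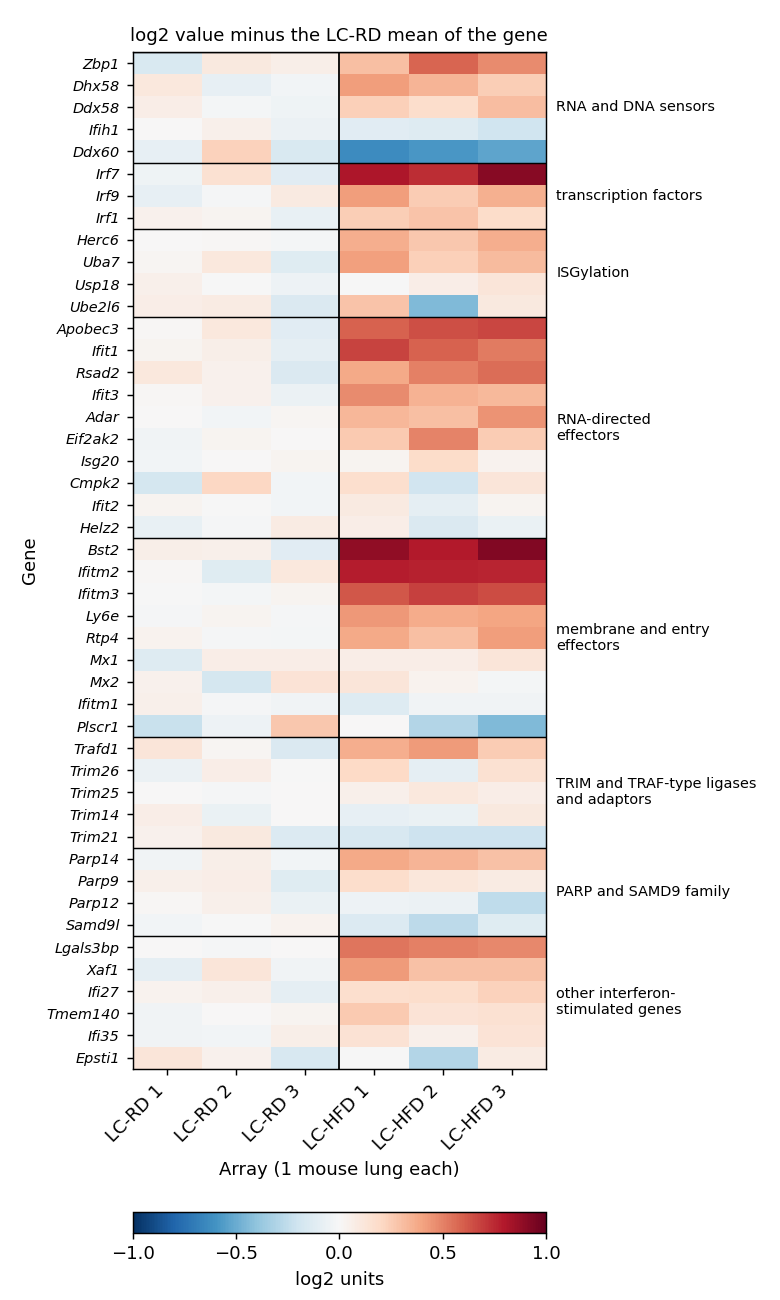
Value of each member on each of the 6 arrays, as the log2 value minus the gene's LC-RD mean (color scale in log2 units, rows grouped by role). The LC-HFD columns are red for Bst2, Irf7, Ifitm2, Ifitm3, Apobec3 and Ifit1 in all 3 mice, and pale for Ifit2, Ifitm1, Usp18, Mx1 and Trim25.

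Sensors of foreign nucleic acid moved in both directions, with 2 of 5 higher, 1 lower and 2 not passing. The count of each role comes from 3 to 10 genes and stands beside 11.1% higher and 16.2% lower over all genes. Values are given below for replicates 1, 2 and 3 of each group in turn. Zbp1, which senses Z-form nucleic acid and can trigger cell death, measured 6.29, 6.57 and 6.46 in LC-HFD against 5.83, 6.09 and 6.04 in LC-RD. The groups did not overlap, and it rose by 0.45 ± 0.106 (SE, adjusted p = 0.0212). Dhx58, or LGP2, a helicase of the RIG-I family that lacks the signaling domain, measured 6.20, 6.13 and 6.03 against 5.89, 5.71 and 5.76. It rose by 0.33 ± 0.0849 (adjusted p = 0.0285), with every LC-HFD mouse above every LC-RD mouse.

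Ddx58 and Ifih1 did not pass on the probe sets read. Ddx58, also written Rigi, which binds RNA with an uncapped end, measured 8.14, 8.08 and 8.21 against 7.96, 7.88 and 7.85, a difference of 0.24 (95% interval 0.07 to 0.42, adjusted p = 0.0541). Its groups did not overlap, and a second probe set of the gene passed at 0.29. Ifih1, or MDA5, the sensor of long double-stranded RNA, measured 8.02, 8.00 and 7.93 against 8.14, 8.18 and 8.07, so all LC-HFD mice lay lower, by -0.15 (95% interval -0.31 to 0.02, adjusted p = 0.181). Ddx60, a helicase linked to RIG-I signaling, measured 3.35, 3.39 and 3.44 against 3.89, 4.21 and 3.82 and fell by 0.58 ± 0.112 (adjusted p = 0.0108). Its log2 values averaged under 4, as those of 2 members did, and its other probe set differed by 0.34 in the opposite direction without passing.

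Among the transcription factors, 2 of 3 rose. Irf7, which amplifies type I interferon production, measured 6.86, 6.79 and 6.96 in LC-HFD and 6.01, 6.21 and 5.94 in LC-RD. Every LC-HFD mouse lay well above the LC-RD mice, and the increase was 0.82 ± 0.0961 (1.77-fold, adjusted p = 0.00181). Irf9, the DNA-binding part of the complex with STAT2, measured 7.45, 7.28 and 7.39 against 6.95, 7.02 and 7.12 and rose by 0.34 ± 0.0837 (adjusted p = 0.0238). Irf1, a factor induced chiefly by interferon-gamma, measured 8.93, 8.97 and 8.86 against 8.72, 8.71 and 8.61. Its groups were apart too, but the difference of 0.24 (95% interval 0.07 to 0.41) had an adjusted p of 0.0533. The array-by-array gap between the Irf7 and Irf1 probe sets, a pair picked after values were seen, shifted by 0.58 between the groups.

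ISGylation joins ISG15 to target proteins through an activating enzyme (Uba7), a conjugating enzyme (Ube2l6) and a ligase (Herc6 in the mouse), and Usp18 removes it. The activating enzyme and the ligase rose, while the other two did not pass. Uba7 measured 7.52, 7.34 and 7.41 against 7.12, 7.20 and 6.98 and rose by 0.32 ± 0.0894 (adjusted p = 0.0377). Herc6 measured 6.23, 6.13 and 6.23 against 5.87, 5.88 and 5.85 and rose by 0.33 ± 0.0699 (adjusted p = 0.0149). Neither gene overlapped between groups. Ube2l6 ranged from 4.49 to 5.21 in LC-HFD and from 4.78 to 5.01 in LC-RD, and its interval was wide (-0.45 to 0.41). Usp18, which also restrains the interferon receptor, differed by 0.06 (95% interval -0.11 to 0.24, adjusted p = 0.566).

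Effectors that act on RNA or nucleotides held 6 increases among 10 members and no decrease. Apobec3, a cytidine deaminase that mutates retroviral DNA, measured 8.61, 8.67 and 8.69 in LC-HFD and 8.03, 8.13 and 7.91 in LC-RD. The groups were far apart relative to their spread, and Apobec3 rose by 0.64 ± 0.0835 (1.55-fold, adjusted p = 0.00266). Rsad2, or viperin, which makes a chain-terminating nucleotide, measured 7.41, 7.54 and 7.60 against 7.14, 7.08 and 6.89 and rose by 0.48 ± 0.0952 (adjusted p = 0.0117). All 3 probe sets of Rsad2 rose, the others by 0.48 and 0.59. Adar, which edits adenosine in double-stranded RNA, rose by 0.36 (adjusted p = 0.0137), and its other probe sets differed by 0.15 and -0.0052 without passing. Eif2ak2, the kinase PKR that stops translation when it binds double-stranded RNA, rose by 0.34 (adjusted p = 0.0317). The other probe sets of Eif2ak2 differed by 0.21 and 0.16 without passing.

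The IFIT genes, whose products act on viral RNA, did not all pass the test. Ifit1 measured 7.45, 7.36 and 7.29 against 6.79, 6.83 and 6.68 and rose by 0.59 ± 0.0811 (1.51-fold, adjusted p = 0.00303). Ifit3 measured 8.52, 8.39 and 8.37 against 8.06, 8.09 and 7.99 and rose by 0.38 ± 0.0774 (adjusted p = 0.0127). For both, the lowest LC-HFD mouse exceeded the highest LC-RD mouse. Ifit2 measured 7.20, 7.03 and 7.15 against 7.15, 7.12 and 7.09, so the groups overlapped, and its difference was 0.01 (95% interval -0.17 to 0.19). The gap between the Ifit1 and Ifit2 probe sets was 0.24, 0.33 and 0.14 in LC-HFD and -0.36, -0.29 and -0.40 in LC-RD, a shift of 0.59 with no overlap. This pair and those below were chosen after values were seen, so their shifts are descriptions without a test.

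Cmpk2, a nucleotide kinase encoded next to Rsad2 and often induced with it, measured 6.32, 5.96 and 6.28 against 5.97, 6.36 and 6.12, with overlapping groups and a difference of 0.03 (95% interval -0.29 to 0.35). The second probe set of Cmpk2 lay higher in every LC-HFD mouse, by 0.33 (95% interval 0.02 to 0.63), with an adjusted p of 0.105. On the probe sets read, the gap between Rsad2 and Cmpk2 shifted by 0.45, but its values overlapped between the groups. Isg20, an RNA exonuclease, differed by 0.08 and Helz2, a helicase, by -0.05, neither passing.

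Effectors at membranes included the largest increase, with 5 of 9 members higher and none lower. Bst2, or tetherin, which holds budding virions to the cell surface, measured 7.98, 7.89 and 8.03 in LC-HFD and 7.16, 7.15 and 6.99 in LC-RD. It rose by 0.87 ± 0.0832 (1.83-fold, adjusted p = 0.000904), the largest difference of the 46 members. Its groups were far apart relative to their spread.

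The IFITM proteins sit in endosomal and surface membranes and block fusion of viral envelopes. Ifitm2 measured 10.23, 10.22 and 10.21 against 9.46, 9.33 and 9.56 and rose by 0.77 ± 0.0818 (1.71-fold, adjusted p = 0.00127). Ifitm3 measured 10.95, 11.01 and 10.98 against 10.32, 10.31 and 10.36 and rose by 0.65 ± 0.0677 (1.57-fold, adjusted p = 0.00121). In both, the LC-HFD mice were nearly identical and lay clear of the LC-RD mice. Ifitm1, of the same family, measured 8.88, 8.97 and 8.97 against a range of 8.97 to 9.05, with overlapping groups and a difference of -0.07 (95% interval -0.24 to 0.10). The gap between the Ifitm3 and Ifitm1 probe sets was 2.07, 2.04 and 2.01 in LC-HFD and 1.27, 1.31 and 1.39 in LC-RD, a shift of 0.72 with no overlap, and that between Ifitm2 and Ifitm1 shifted by 0.84.

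Ly6e, a lipid-anchored surface protein that hinders coronavirus entry, measured 11.92, 11.86 and 11.88 against 11.47, 11.51 and 11.47 and rose by 0.40 ± 0.0676 (adjusted p = 0.00651) on the probe set read. Its second probe set measured 6.49, 6.80 and 6.64 against 8.08, 8.10 and 8.05 and fell by 1.43 (adjusted p = 0.000259). The probe sets of Ly6e thus passed in opposite directions, and the direction of this gene is uncertain. Rtp4, a transporter protein that inhibits flavivirus replication, rose by 0.37 (adjusted p = 0.0111). The Mx GTPases, which trap viral nucleocapsids, measured 3.35 to 3.60 for Mx1 and 4.28 to 4.60 for Mx2 over the 6 arrays, and neither passed. Plscr1, a scramblase of the plasma membrane, differed by -0.24 (95% interval -0.62 to 0.13) on the probe set read, while another of its 3 probe sets fell by 1.56 (adjusted p = 0.00124).

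The ligases and adaptors of the TRIM and TRAF type held 1 increase among 5 (20%). So small a list cannot be set apart from the 11.1% of all genes that rose. Trafd1, which damps Toll-like receptor and RIG-I signaling, measured 8.03, 8.09 and 7.91 against 7.78, 7.68 and 7.52 and rose by 0.35 ± 0.0948 (adjusted p = 0.0356), with no overlap. Trim25, the ubiquitin ligase that acts on RIG-I, measured 9.53, 9.58 and 9.55 against 9.48, 9.47 and 9.49. Its groups were apart by a small margin, and the difference was 0.07 (95% interval -0.08 to 0.23). Trim21, a cytosolic antibody receptor, differed by -0.19 (adjusted p = 0.14), and Trim14 and Trim26 overlapped between groups.

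Of the PARP and SAMD9 family, 1 of 4 rose (25%), again too few genes to set beside the 11.1% of all genes. Parp14, an ADP-ribosyltransferase, measured 7.85, 7.81 and 7.76 in LC-HFD and 7.44, 7.53 and 7.45 in LC-RD and rose by 0.34 ± 0.0711 (adjusted p = 0.0149). The groups did not overlap, although its second probe set differed by -0.07. Parp9 differed by 0.13 and Parp12 by -0.12. Samd9l, a restriction factor for poxviruses, measured 8.96, 8.83 and 8.97 against 9.06, 9.09 and 9.12, so all LC-HFD mice lay lower, by -0.17 (95% interval -0.35 to 0.00, adjusted p = 0.132).

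Among the remaining 6 measured genes, 2 rose. Lgals3bp, a secreted glycoprotein that binds galectin, measured 8.93, 8.90 and 8.87 against 8.40, 8.38 and 8.40. The mice of each group were nearly alike, and it rose by 0.51 ± 0.0668 (1.42-fold, adjusted p = 0.00269). Xaf1, a partner of the apoptosis inhibitor XIAP, measured 7.88, 7.75 and 7.74 against 7.37, 7.58 and 7.42 and rose by 0.34 ± 0.0872 (adjusted p = 0.0299). Ifi27 measured 10.08, 10.08 and 10.14 against 9.95, 9.96 and 9.82, a difference of 0.19 (adjusted p = 0.104), while its second probe set rose by 0.35. Tmem140 differed by 0.19, Ifi35 by 0.11 and Epsti1 by -0.07, none passing.

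Readings of the same gene by different probe sets were compared across the group. The 46 members had 83 probe sets of their own, of which 29 rose, 4 fell and 50 did not pass. A change over 2-fold was passed by 2 of the 83, both of them decreases, in Ly6e and Plscr1. Of the 24 members with several probe sets, 13 had probe sets with different calls, and in Ly6e and Herc6 they passed in opposite directions. These counts were not made over the whole array, so they are not shown to be particular to this group. For Herc6 the 4 probe sets differed by 0.33, 0.47, -0.23 and 0.16. Zbp1 rose on both of its probe sets, by 0.45 and 0.93, and Uba7 on 2 of 3, by 0.32 and 0.57. Different probe sets can read different transcript ends, and which transcripts these read was not examined.

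**Figure D3:**
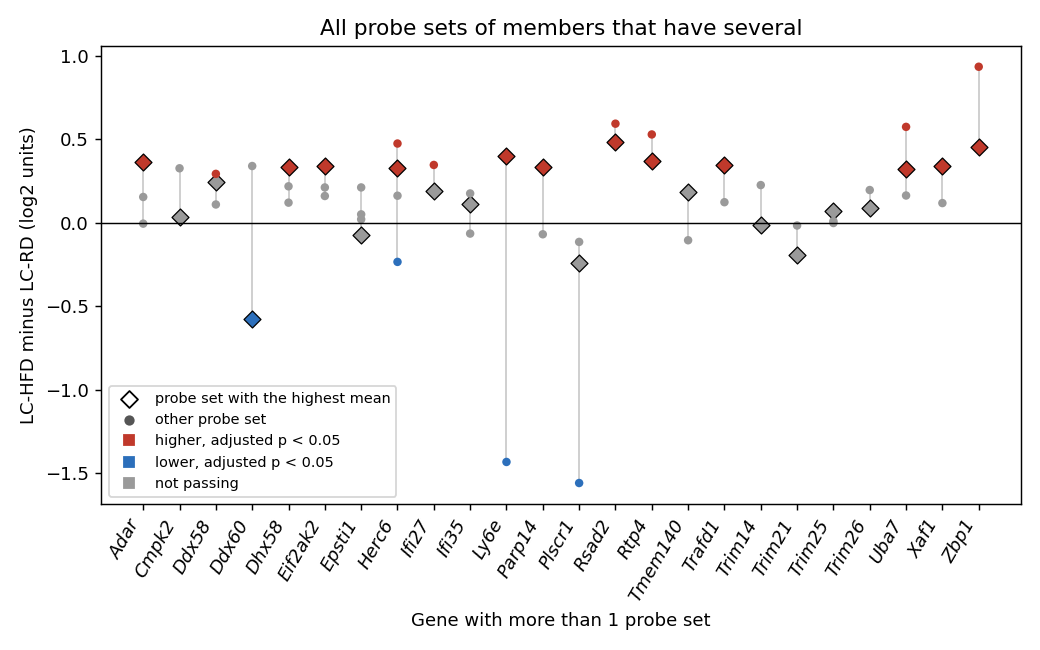
Difference between LC-HFD and LC-RD (log2 units, y axis) for every probe set of the 24 members that have more than 1, with the probe set of highest mean as a diamond and color for the test. Rsad2, Rtp4 and Zbp1 are red throughout, and Ly6e and Plscr1 each have a probe set below -1.

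Genes that produce, receive and relay interferon were read beside the members. Of 54 listed, 41 were measured, and 6 rose, 5 fell and 30 did not pass (14.6% and 12.2%). Their median difference was 0.07. Over all 18193 genes 11.1% rose and 16.2% fell, so the pathway genes lay near those shares. None of the 10 measured interferon ligands reached a mean log2 value of 6 and 7 lay under 4. Ifna9 rose by 0.43 from such a level (3.03, 3.40 and 3.41 in LC-RD and 3.75, 3.79 and 3.60 in LC-HFD), and Ifnz, interferon zeta, fell by 0.34 (adjusted p = 0.0337). Ifnb1, interferon-beta, differed by 0.05 without passing.

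Among the 6 receptor chains, Il10rb, a chain shared by the receptors of interferon-lambda and IL-10, rose by 0.27 (adjusted p = 0.0276), while Ifnar1 differed by -0.01 and Ifnar2 by -0.18 without passing. Stat2, the partner of IRF9, measured 5.98, 6.12 and 5.80 in LC-HFD and 5.47, 5.39 and 5.46 in LC-RD. It rose by 0.53 (adjusted p = 0.00853), with no overlap. Jak2, a kinase of the interferon-gamma receptor, fell by 0.26 (adjusted p = 0.0425), and Jak1 differed by 0.11. Of the inhibitors, Ptpn11 differed by 0.07 without passing, Pias1 rose by 0.56 (adjusted p = 0.00229) and Socs3, which is driven mainly by IL-6 type cytokines through STAT3, fell by 0.39 (adjusted p = 0.0384).

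Downstream of the sensors, 2 of 14 measured genes rose and 2 fell (14.3% each), near the 11.1% and 16.2% over all genes. Sting1, the adaptor of cytosolic DNA sensing, measured 7.50, 7.45 and 7.42 against 6.96, 6.90 and 6.79 and rose by 0.57 (adjusted p = 0.00285). Ticam1, the adaptor TRIF of Toll-like receptor 3, rose by 0.47 (adjusted p = 0.00983). Traf6 fell by 0.29 (adjusted p = 0.0351) and Tlr7, an endosomal receptor of single-stranded RNA, by 0.41 (adjusted p = 0.0245). Mavs, the adaptor of RIG-I and MDA5, differed by -0.01 and the kinase Tbk1 by -0.01.

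Lists that interferon also induces are given for comparison, without a test between lists. Over all genes, 11.1% rose and 16.2% fell. Of the oligoadenylate synthetases, which activate RNase L, 4 of 10 measured genes rose, and Oas2 (1.24), Oasl2 (1.18) and Oas3 (1.09) passed 2-fold, which no member did on the probe set read. Oas1a measured 8.18, 8.20 and 8.16 against 7.16, 7.18 and 7.21 and rose by 0.99 (adjusted p = 0.000283). Of the interferon-gamma induced GTPases 4 of 9 rose, with Igtp at 0.68, Iigp1 at 0.53 and Gbp2 at 0.46. Of the genes of MHC class I presentation 6 of 12 rose, with Nlrc5, their transactivator, at 0.68, Tapbp at 0.54 and H2-K1, a heavy chain, at 0.36.

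**Figure D4:**
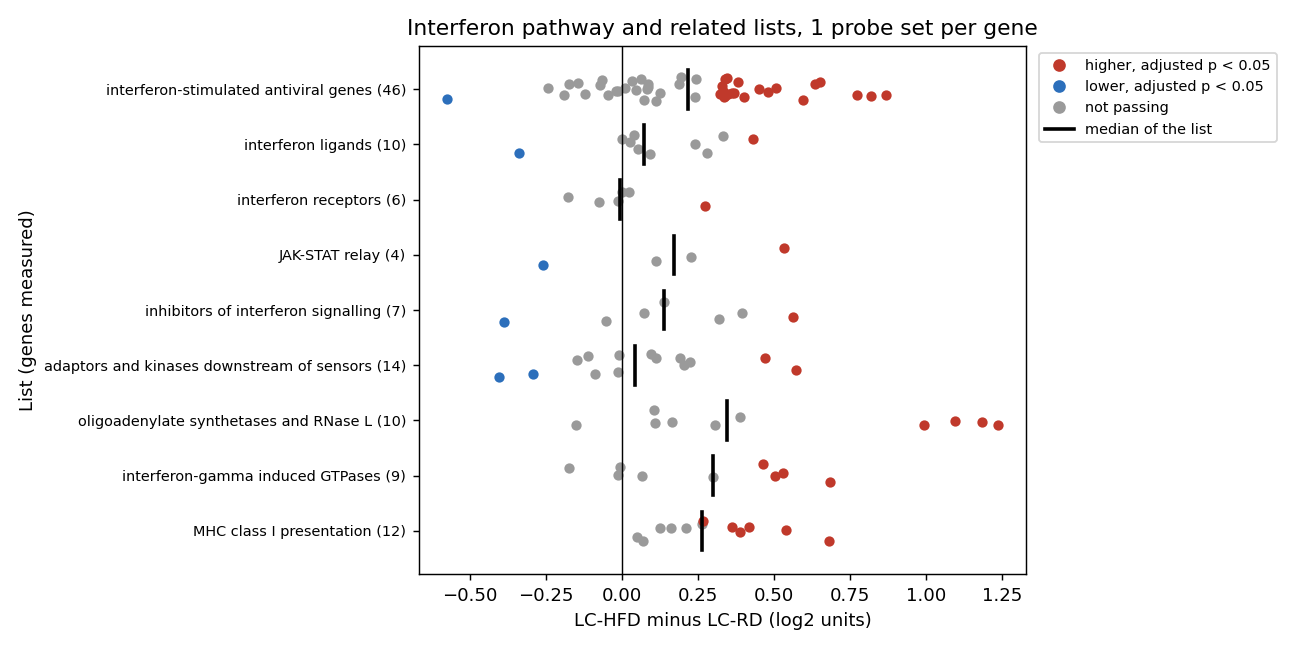
Difference between LC-HFD and LC-RD (log2 units, x axis) for each measured gene of the antiviral group, of the 5 pathway lists and of 3 related lists, with a black bar at the median of each list. Points of the antiviral group center on 0.22, and the 4 points near or beyond 1 are oligoadenylate synthetases.

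Markers of several cell types of the lung moved with the groups. These lists hold few genes each, and over all genes 11.1% rose and 16.2% fell. Of 9 macrophage markers, 5 rose (Marco by 0.77, C1qb by 0.62, C1qc by 0.53, C1qa by 0.35 and Chil3 by 0.29) and none fell, while Adgre1, Mrc1, Itgax and Cd68 did not pass. Their summed linear signal, made up mostly of Chil3, was 11620 to 11910 in LC-HFD and 9588 to 9983 in LC-RD. Of 7 markers of plasmacytoid dendritic cells, the main makers of type I interferon, none rose and Tcf4 fell by 0.38, and the sums were 646.6 to 682.9 and 718.4 to 774.3. Without Tcf4, a sum added after seeing the data, the other 6 markers gave 248.4 to 297.4 in LC-HFD and 233.4 to 239.8 in LC-RD. The first sums were made up mostly of Tcf4, and those without it mostly of Cox6a2. Siglech, Ccr9, Pacsin1 and Spib had mean log2 values of only 3.48 to 4.16, so neither sum reads these cells well. Klk1 (0.42) and Cox6a2 (0.18) lay higher in every LC-HFD mouse without passing. Of 4 measured neutrophil markers, S100a8 fell by 0.85 and S100a9 by 0.92, Ngp rose by 0.72, and Csf3r differed by 0.33 without passing. Their sums, made up mostly of S100a8 and S100a9, were 552.6 to 568.1 in LC-HFD and 873.4 to 969 in LC-RD. Of 3 club cell markers, Scgb3a2 fell by 0.53 (adjusted p = 0.00229) and Cyp2f2 fell by 0.29 (adjusted p = 0.022), while Scgb1a1 did not pass at -0.11. Their sums, made up mostly of Scgb1a1, were 15670 to 16120 in LC-HFD and 18010 to 18540 in LC-RD. Of 3 B cell markers, Cd79a rose by 0.96 and Ms4a1 fell by 0.70, with sums of 195.2 to 203.8 and 206.6 to 224. Of 5 endothelial markers, Pecam1 rose by 0.37 while Tek fell by 0.38 and Cldn5 by 0.23, with sums of 1558 to 1702 and 1702 to 1744. No marker of T cells or alveolar type II cells passed, and 1 of 4 alveolar type I markers, Aqp5, rose by 0.39. The part of these cells in the members' differences was not tested.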

How the data were processed

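Each of 6 Affymetrix mouse arrays holds the lung RNA of 1 mouse, 3 on each diet. The authors deposited 1 table of log2 values for 45101 probe sets. GCRMA, a background correction and normalization across arrays, is named in the submitters' processing notes and Partek software in the methods, with no version stated. Array medians were 4.79 to 4.84, the values were not normalized again, and 0 sample columns were left unused. The 3 arrays per group limit precision.

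The 64 control probe sets were kept apart. Names came from the platform annotation, with 34754 symbols updated by Entrez ID (RefSeq), and probe sets of several genes were not named. Groups were compared with limma 3.58.1 (R 4.3.3, default settings, two-sided) over 45037 probe sets, with Benjamini-Hochberg adjustment. Errors are standard errors of the fit. The fit was tested on simulated data, where it estimated the changes without marked bias but missed part of the true ones, and its pass mark for recovery was replaced after that was seen. A gene that did not pass may therefore have changed. Figures and promoter searches used Python 3.11.15.

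The members, lists and alternatives were chosen with earlier results of these data known. Genes named in each role are the one with the highest mean, up to 3 with the largest difference past the threshold and those with probe sets that pass both ways. Of pathway and related lists, the one with the highest mean and up to 2 with the largest such difference were named. Other genes are named beyond that rule to account for every member and were chosen after their values were seen. Summed signals add 2 to the power of each log2 value over the markers. Alternatives were the methods' t-test, trended and robust variance, array weights, quantile normalization, median centring, filters at a mean log2 value of 4 or 6, a change over 2-fold, other probe sets, a replicate block, the integrity covariate and leaving out each array.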

Additional observations from a re-analysis of the deposited data

How the results depend on the processing

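The count of 21 higher members was 13 with the replicate block, 7 with the integrity covariate, 0 over 2-fold and 10 to 17 when 1 array was left out (10 without LC-RD replicate 1, 13 without LC-RD replicate 2). The members' median difference of 0.216 was 0.216 with the block, 0.254 with the covariate and 0.202 to 0.236 with 1 array left out. The replicate numbers do not pair the mice, with correlations of same-numbered mice of -0.04, -0.09 and -0.03. The count of 1 lower member was 0 by the methods' t-test, at a mean of at least 4, over 2-fold and with the integrity covariate, 2 with trended and robust variance, with the mean of all probe sets and with the dimmest probe set, and 3 at a mean of at least 6.

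Pathway genes higher, 6, were 10 with trended and robust variance, 0 over 2-fold and 3 with the integrity covariate. Pathway genes lower, 5, were 3 by the methods' t-test, 2 with quantile normalization, median centring or the replicate block, 0 over 2-fold or with the integrity covariate, and 0 to 3 with 1 array left out. The members' median difference was 0.257 with quantile normalization, 0.156 with the mean of all probe sets and 0.143 with the dimmest. Ly6e turned to -0.52 with the mean and -1.43 with the dimmest probe set, which also turned Ddx60 to 0.34, Trim25 to -0.00164 and Parp14 to -0.0689. The causes were not tested. The other alternatives kept these counts within 1.5 times. The low signal of Ddx60, Mx1 and Mx2 limits what their values can show.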
